A study of Homo sapiens with 16 samples.

Results

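The binding sites of the cohesin subunit RAD21 were compared between LoVo cells held in early S phase and LoVo cells held in M phase. They are 50088 of the 146596 peaks in the 12 peak lists of the series, 27122 in the S-phase list and 22966 in the M-phase list, and all of them were used. Each RAD21 peak was placed by whether it overlapped a RAD21 peak of the other phase by at least 1 bp. A peak that did is called shared, and the others are S-only or M-only.

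LoVo is an established line of human colon adenocarcinoma. The series mapped 6 targets in 2 phases by ChIP-seq, the sequencing of DNA precipitated with an antibody against the protein: RAD21, the insulator protein CTCF, the transcription factors HNF4A, KLF5 and MYC, and histone H3. For the S-phase group, cells went through 2 blocks of 12 h in 2 mM thymidine with 8 h of normal medium between them and were harvested at the end of the second block. For the M-phase group, cells spent 12 h in 2 mM thymidine and then 8 h in 200 ng/ml nocodazole. Both RAD21 libraries came from chromatin fixed in 1% formaldehyde and sheared to 200 to 400 bp, precipitated with 5 µg of the same rabbit antibody and called against rabbit IgG of the same phase. A RAD21 siRNA appears in the series' design text and in none of the sample labels, and none was assumed.

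Cohesin is a ring-shaped complex in which RAD21 closes the gap between the SMC1A and SMC3 arms. It holds sister chromatids together from S phase onward, and in interphase it also extrudes chromatin loops that come to rest at CTCF bound to DNA. In early mitosis most cohesin leaves the chromosome arms, with the help of WAPL, while shugoshin protects a pool near centromeres until separase cuts RAD21 at anaphase. Thymidine stops DNA synthesis, and nocodazole takes microtubules apart and so holds cells before anaphase. HNF4A and KLF5 are factors of the gut epithelium, and MYC drives growth genes.

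There was 1 library per target and phase, so no test across samples could be made and no p-value is given. Intervals are 95% intervals over peaks or tags and cover counting error only. Phase, drug treatment and library cannot be told apart here. The libraries were unlike in depth: the S-phase RAD21 library had 7531890 tags after duplicate removal against 10753369 in its IgG control, and the M-phase library had 16510005 against 6875106. A tag is 1 mapped read. The smallest listed peaks had 9 S-phase and 13 M-phase tags. Scaled tags, that is tags per 1000000 filtered tags of the library, were 1.19 and 0.787 for these peaks. No cell-cycle marker was measured in the files, so the arrest itself could not be checked. A peak missing from a list was not called, and its tags in that phase are not known here.

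Most cohesin sites of S phase were listed again in M phase. Of the 27122 S-phase peaks 18916 overlapped an M-phase peak, a share of 69.7% (Clopper-Pearson interval 69.2 to 70.3%), and 8206 were S-only. In the other direction 18842 of 22966 M-phase peaks overlapped an S-phase peak, and 4124 peaks, 18% of the list, were M-only. Sites were seldom split or merged: 37 S-phase peaks covered 2 M-phase peaks, and 107 M-phase peaks covered 2 S-phase peaks. Near misses were also few, as 292 S-only peaks had an M-phase RAD21 peak within 1000 bp and 171 M-only peaks had an S-phase one. CTCF, compared in the same way, had 69.4% of its S-phase peaks in its M-phase list. RAD21 stood 0.351 percentage points above CTCF (Newcombe interval -0.414 to 1.12), and this interval includes 0. It treats the shares as independent, although 76.2% of S-phase RAD21 peaks overlapped an S-phase CTCF peak. The CTCF libraries and their controls also differed in depth from those of RAD21, as given above.

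Peaks listed in 1 phase alone were weaker than shared peaks, in both lists. S-only peaks had a median of 13 tags and a width of 728 bp, and shared S-phase peaks had 26 tags and 951 bp. Their deposited fold enrichment, the peak caller's own value for a peak against its estimate of the background, had a median of 7.51 against 13.3. M-only peaks had a median of 22 tags, 879 bp and an 8.11-fold enrichment, against 43 tags, 1091 bp and 14.0-fold in shared M-phase peaks. The M-only peaks also lay close to the calling limit, with a median false discovery rate (FDR) of 10.2% against 0.44% in shared peaks. When the S-phase list was cut into 10 equal groups of fold enrichment, 34.8% of the weakest group and 98.6% of the strongest had an M-phase peak. In the M-phase list the share found in S phase ran from 50.4% to 99.9%. Among S-phase peaks with a score (-10 log10 of the p-value) of at least 500, 4 of 1743 were absent from the M-phase list. All 1059 M-phase peaks of that score were present in S phase (interval from 99.7%), so a set of strong M-only cohesin sites was not seen at this threshold.

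RAD21 peaks with CTCF were found in M phase more often than those without it at each level of enrichment. Over the whole list the difference was 48.1 points (46.9 to 49.4), and weighted to the same mix of scores it was 27.4 points (25.9 to 28.9). In the weakest of the 10 groups, 51.9% of RAD21 peaks with an S-phase CTCF peak and 19.6% of those without one were found in M phase. In the fifth group these shares were 77.4% and 36.8%, and in the eighth 91.4% and 68.6%. In the strongest group they were 98.8% (2636 peaks) and 92.1% (76 peaks). The gap between the classes was of like size over the 6 weaker groups and narrowed over the 4 strongest, and the intervals of the classes stayed apart in all 10.

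**Figure D1:**
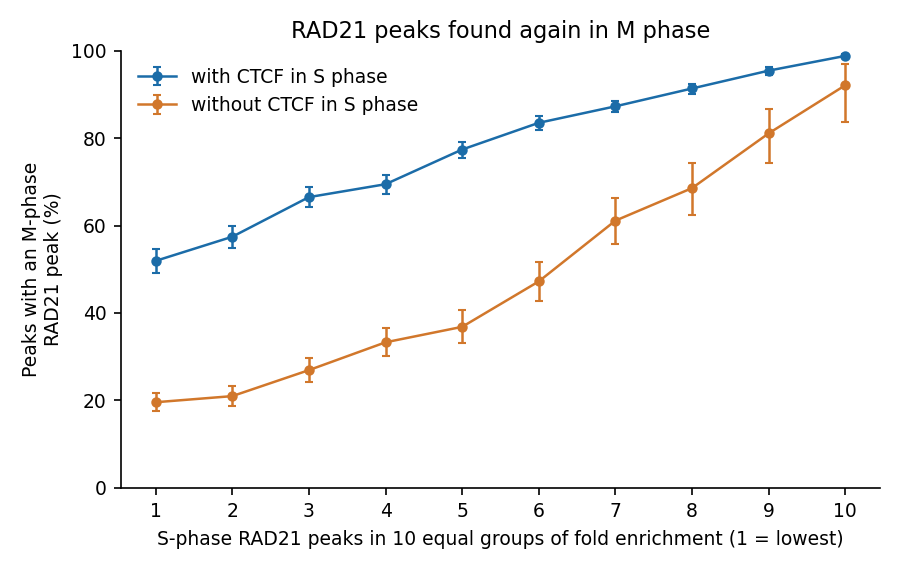
Share of S-phase RAD21 peaks that overlap an M-phase RAD21 peak (vertical axis, percent) in 10 equal groups of S-phase fold enrichment (horizontal axis), with and without an S-phase CTCF peak. Points are shares of peaks and bars are Clopper-Pearson 95% intervals from 1 library per phase. The shares run from 51.9 to 98.8% with CTCF and from 19.6 to 92.1% without.

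The M-phase state of CTCF itself went with that of RAD21. At the 20678 S-phase RAD21 sites that held CTCF in S phase, both proteins were listed in M phase at 68.1%, RAD21 without CTCF at 13.1%, CTCF without RAD21 at 11.0% and neither at 7.79%. RAD21 was found again at 86.1% of the sites where CTCF was still listed and at 62.7% of those where it was not, a difference of 23.4 points (21.8 to 24.9). Weighted to the same mix of RAD21 scores, the difference was 13.7 points (12.2 to 15.2). Some difference in strength remains inside each group of scores, so the weighted values are not free of it. At the 6444 sites without S-phase CTCF, neither protein was listed in M phase at 58.8% and RAD21 without CTCF at 18.9%. A group of 911 such sites, 14.1%, held both proteins in M phase, and 529 held CTCF without RAD21. RAD21 was found again at 63.3% of the sites where CTCF was listed in M phase only and at 24.3% of those with CTCF in neither phase, 38.9 points apart (24.3 after weighting by score, 21.4 to 27.2).

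**Figure D2:**
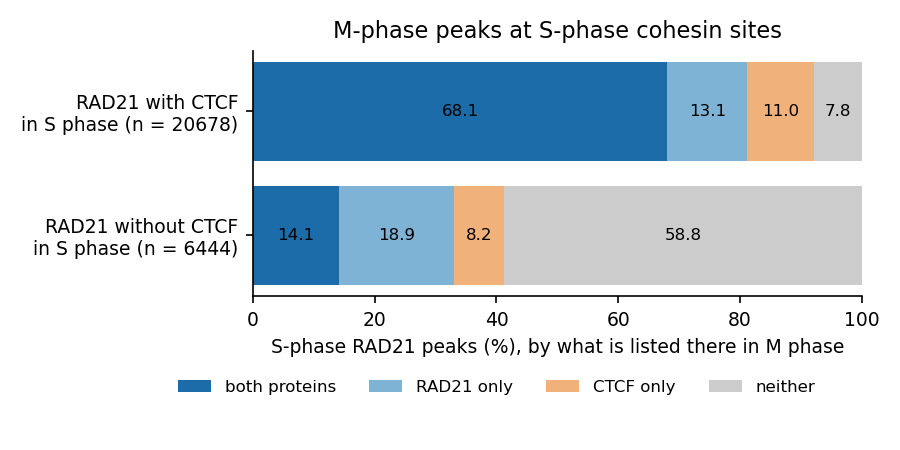
Share of S-phase RAD21 peaks (horizontal axis, percent) by which of RAD21 and CTCF is listed there in M phase, for 20678 peaks with and 6444 without an S-phase CTCF peak. Both proteins are listed at 68.1% of the first and 14.1% of the second, and neither at 7.79% and 58.8%.

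RAD21 peaks that HNF4A, KLF5 or MYC also occupied in S phase were, as a group, found again less often than peaks without these factors. Before weighting by score, HNF4A alone at CTCF sites differed least. With CTCF present, 82.5% of peaks with no factor were found in M phase, 75.7% with 1 factor, 68.5% with 2 and 66.2% with all 3. Weighted by score, the differences from peaks with no factor were -5.56, -9.76 and -11.9 points, and each interval stayed below 0. Of the single factors at CTCF sites, HNF4A alone gave 80.1% of 508 peaks, a difference of -2.40 points with an interval (-6.13 to 0.885) that includes 0, or -3.71 after weighting (-6.72 to -0.712). KLF5 alone gave 72.6% and MYC alone 73.6%, differences of -9.90 points (-17.1 to -3.70) and -8.87 points (-12.0 to -6.00). After weighting these were -6.90 (-11.9 to -1.87) and -6.35 (-8.94 to -3.77), with intervals that overlap the weighted one of HNF4A. Whether the factors differed from each other was not tested. Without CTCF the order was not graded: 36.7% with no factor, 22.1% with 1, 25.3% with 2 and 29.9% with 3. After weighting, peaks without CTCF differed from those with no factor by -5.57 points with 1 factor (-8.43 to -2.71) and -4.34 with 2 (-7.74 to -0.938). The peaks without CTCF that held all 3 factors differed by -6.89 points before weighting (-11.1 to -2.38). After weighting this was -3.53 points, with an interval of -7.76 to 0.697 that includes 0. These 469 peaks had a median fold enrichment of 6.26, against 8.22 at the 4417 peaks with neither CTCF nor a factor.

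At sites shared with a factor and CTCF, RAD21 was mostly listed in M phase without that factor. Of 1395 S-phase RAD21 peaks that overlapped both HNF4A and CTCF, 64.9% held RAD21 without HNF4A in M phase, 7.46% held both and 1.43% held HNF4A without RAD21. The values for KLF5 (61.2, 6.98 and 2.26%) and MYC (63.4, 6.68 and 2.90%) at CTCF sites were close to these. Where CTCF was absent the balance was different: of 1479 HNF4A sites, 20.5% held RAD21 without HNF4A, 6.09% held both, 9.94% held HNF4A without RAD21 and 63.5% neither. The M-phase lists of the 3 factors were short, with 2413 HNF4A, 2118 KLF5 and 1974 MYC peaks, against 15437, 5928 and 11941 in S phase. Of the M-phase peaks 0, 396 and 86 had an FDR below 5%. Whether the factors were missing more often at RAD21 sites than at their other sites was not tested. The label that counts 2118 peaks stands on the M-phase rabbit IgG sample and not on KLF5, while the file headers name KLF5 as the target and that IgG as the control. What part this played was not tested.

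M-only peaks were less often at CTCF than shared ones. Of the 4124 M-only peaks 51.2% overlapped a CTCF peak of either phase, against 93.6% of shared M-phase peaks. For M-phase CTCF alone the shares were 35.1% and 79.3%, which differed by -44.3 points (-45.8 to -42.7), or -26.8 after weighting by score. The share with CTCF of either phase was higher among strong M-only peaks. Against the whole S-phase list it was 76.5% of the 672 M-only peaks with a score of at least 100, and 85.4% of the 157 M-only peaks among the 10000 strongest M-phase peaks. Both limits were added after seeing the data. An S-phase CTCF peak lay under 43.6% of the M-only peaks, so that CTCF was already listed there in S phase when RAD21 was not. Both phases had CTCF at 27.5%. The S-phase CTCF peaks covered more of the genome than the M-phase ones, as given above, and the part of this was not tested. A factor of the M-phase lists lay at 10.1% of M-only and 2.96% of shared peaks, a difference of 7.11 points (6.19 to 8.09), or 6.13 after weighting by score. Such a difference was not particular to M-only peaks, as 5.06% of S-only and 2.95% of shared S-phase peaks held an M-phase factor. The M-phase RAD21, HNF4A, KLF5 and MYC lists were all called against the same rabbit IgG library, and the part of this was not tested. Peaks that overlapped none of the 8 lists of CTCF, HNF4A, KLF5 and MYC made up 32.2% of M-only peaks and 29.1% of S-only peaks, against 4.38% of the shared peaks in either list.

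Some single sites are given here, picked from those of highest fold enrichment in each class. They are therefore stronger than most peaks of 1 phase, whose medians were 7.51-fold for S-only and 8.11-fold for M-only peaks. Positions are in hg18, as the files give them, and genes were not assigned because no annotation of that build was used here. The strongest M-only peak at CTCF, chr1:241554875-241555842, had 54 tags and a 29.49-fold enrichment, and CTCF was listed there in both phases. An M-only peak at chr4:118274780-118275625 had 34 tags and 20.64-fold enrichment over a CTCF peak listed only in S phase. At chr3:80917044-80917989 an M-only peak with 36 tags and 17.69-fold enrichment overlapped none of the other proteins. Of the S-only peaks, 47.4% overlapped S-phase CTCF. The S-only peak of highest enrichment, chr11:100804479-100805445, was of this kind, with 36 tags and 37.86-fold enrichment, and CTCF was not listed there in M phase. Among the S-only peaks without S-phase CTCF, chr16:21869414-21870565 held MYC in S phase. It had 36 RAD21 tags and 21.0-fold enrichment, and had a CTCF peak in the M-phase list. At chr4:142776366-142777410 all 3 factors lay under an S-only RAD21 peak with 19 tags and 18.86-fold enrichment, and KLF5 alone of these was listed in M phase. The S-only peak at chr4:166137889-166138621, with 20 tags and 29.15-fold enrichment, overlapped no other protein in either phase. All of these lay more than 1000 bp from any RAD21 peak of the other phase, and their tag counts were small beside those of the strongest shared sites.

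The strongest shared sites were CTCF sites with large tag counts in both libraries. The highest M-phase enrichment at a site with a single peak in each phase was at chr17:68763113-68764422, with 110 S-phase tags and 196 M-phase tags, or 14.6 and 11.9 scaled tags. Its M/S ratio of scaled tags was 0.813 (exact conditional interval 0.640 to 1.04), while its fold enrichment went from 33.29 in S phase up to 84.14 in M phase. The site at chr1:201937321-201938602 had 95 and 146 tags, 12.6 and 8.84 scaled tags, and 37.56-fold and 75.2-fold enrichment. Here the scaled tags were lower in M phase and the fold enrichment was higher. Over the whole set the medians differed in this way, but many single sites did not.

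Across the 18670 sites with 1 peak in each phase, scaled tags had a median M/S ratio of 0.745 (quartiles 0.597 to 0.938) and were lower in M phase at 80.3% of sites. The deposited fold enrichment had a median ratio of 1.07 (0.767 to 1.49) and was lower in M phase at 44.8%. The medians of the measures thus differ in direction, and neither measure is given as a change in cohesin occupancy. The control libraries differ in the opposite way to the RAD21 libraries, with 0.639 times as many IgG tags in M phase and 2.19 times as many RAD21 tags. The RAD21 libraries also differed in redundant rate, the peak caller's share of duplicate tags, with 0.08 in S phase and 0.33 in M phase. Peaks held 9.17% of the filtered S-phase tags and 6.12% of the M-phase ones. Scaled by total tags instead, the median ratio was 0.538. The part of these values in the ratios was not tested. M-phase peaks were wider at 73.2% of the sites, with a median width ratio of 1.14, and per kb of called width the tag ratio was 0.650.

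**Figure D3:**
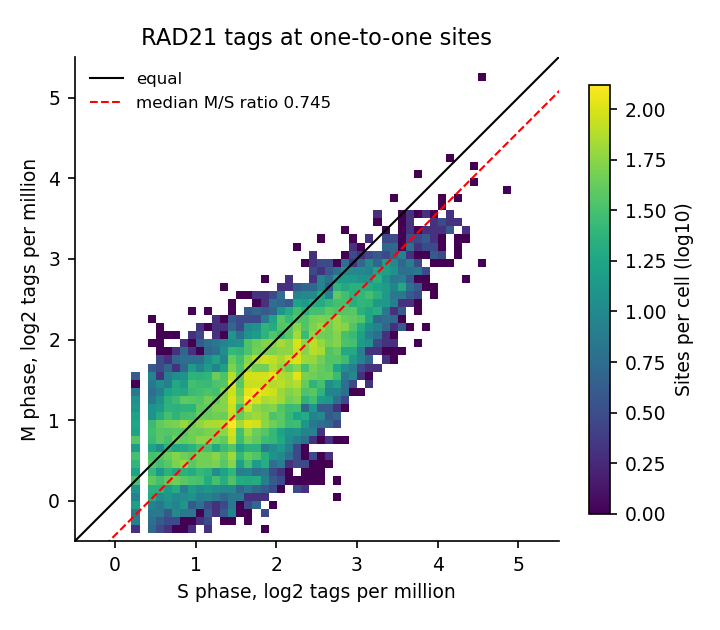
RAD21 tags per 1000000 filtered tags (log2) in S phase (horizontal axis) and M phase (vertical axis) at 18670 one-to-one sites, coloured by the number of sites per cell on a log10 scale. The solid line marks equal values and the dashed line the median M/S ratio of 0.745. The lower edges come from the smallest listed peaks, 1.19 (S phase) and 0.787 (M phase) scaled tags.

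The order of the sites was partly held between phases. Spearman's rho across the 18670 sites was 0.748 for tags, 0.644 for score, 0.499 for fold enrichment and 0.471 for width, given as a description over sites that share 2 libraries. The ratio depended on which list was used to rank the sites. By S-phase tags it fell from a median of 1.06 in the lowest of 10 equal groups to 0.614 in the highest, and by M-phase tags it went from 0.597 up to 0.782. By the sum of both, it fell from 0.829 to 0.671.

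A 2-fold lower scaled tag count in M phase was found at 2130 sites, 11.4% of the 18670, and a 2-fold higher one at 72 sites, 0.386%. By fold enrichment 6.77% were 2-fold lower and 10.5% 2-fold higher. Sites with a factor in S phase were 2-fold lower in scaled tags in 16.2% of cases, and sites without one in 10.7%. The difference was 5.46 points (3.94 to 7.08), and 4.98 after weighting by S-phase tags. It lay mostly with the CTCF sites, of which 17.1% were 2-fold lower with a factor and 10.7% without, whereas sites without CTCF gave 12.6% and 10.9%. By fold enrichment the shares 2-fold lower over all sites were 6.74% with a factor and 6.78% without, but the classes differed. CTCF sites gave 7.77% (6.59 to 9.08%) with a factor and 6.75% (6.35 to 7.17%) without. Sites without CTCF went the other way, with 2.60% (1.35 to 4.49%) and 6.98% (5.79 to 8.34%).

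The sites shown here have the lowest and highest ratios among those with at least 30 tags in a phase, off chromosome 8 and H3 peaks. The lowest ratio over all sites was 0.155. At chr17:35389333-35391410, a CTCF and MYC site, the S-phase peak had 52 tags over 2078 bp and the M-phase peak 20 tags over 831 bp, a scaled ratio of 0.175 (0.0992 to 0.299), and MYC was not listed in M phase. At chr5:54865342-54867143 HNF4A, KLF5 and MYC were all listed in S phase and none in M phase, and RAD21 went from 45 to 20 tags, a ratio of 0.203 (0.113 to 0.350). The fold enrichments there, 9.39 and 8.85, were close. The third lowest, chr10:64246650-64248214, held CTCF and no factor in S phase. Its RAD21 tags went from 38 to 18, a ratio of 0.216 (0.116 to 0.388). The highest ratio was at chr5:92942749-92943310, a CTCF site in both phases, where a 562 bp peak of 10 tags in S phase met a 2453 bp peak of 80 tags in M phase, a ratio of 3.65 (1.88 to 7.90). At chr9:27518830-27519453, with CTCF, HNF4A and MYC in S phase and CTCF alone of these in M phase, 10 tags became 66. The ratio was 3.01 (1.54 to 6.57). At chr13:105983077-105983595, with no other protein listed, 11 tags became 72, a ratio of 2.99 (1.57 to 6.25). These sites were picked for their ratios, so the intervals describe counting error and nothing more. At each of them the called width moved in the same direction as the tags, and its part was not tested.

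In a few places the phases divided a region differently. The S-phase peak at chr7:141320787-141323400 had 128 tags over 2614 bp, and M phase listed 2 peaks there, with 58 and 182 tags, of which the second also overlapped M-phase CTCF. The M-phase peak at chr12:14281932-14285002 had 138 tags and covered 3 S-phase peaks of 53, 16 and 22 tags, each of them at CTCF. An M-phase peak of 9074 bp at chr12:69836528-69845601, with 411 tags but 4.61-fold enrichment and an FDR of 11.39%, covered 3 S-phase peaks of 53, 57 and 45 tags. HNF4A, KLF5 and MYC overlapped all 3 in S phase, and CTCF overlapped none.

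The summit of a shared site, the position of highest tag pile-up, moved little. Its S-phase and M-phase positions lay a median of 41 bp apart (quartiles 19 to 75 bp), within 100 bp at 84.9% of the sites and within 200 bp at 96.8%. The distance was 38 bp where CTCF was present in both phases and 64 bp where it was present in neither. The RAD21 summit also lay close to the CTCF summit of the same phase, at a median of 47 bp for S phase and 37 bp for M phase. It was within 50 bp at 52.8% of S-phase and 63.4% of M-phase sites. Peaks of 1 phase sat further from the CTCF summit: 59 bp in S-only against 45 bp in shared S-phase peaks, and 46 bp in M-only against 36 bp in shared M-phase peaks. Over the whole lists, S-only peaks had a median of 13 tags against 26 in shared ones, and M-only peaks 22 against 43. Sites with CTCF in both phases had a median of 3.85 S-phase scaled tags, and those with CTCF in neither 2.12. The part of tag number in these distances was not tested. The peak caller's fragment length for S phase was 213 bp for RAD21 and 308 bp for CTCF, and for M phase it was 226 and 191 bp. The tag number of the libraries also differed, as given above. Their part in the phase difference was not tested.

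**Figure D4:**
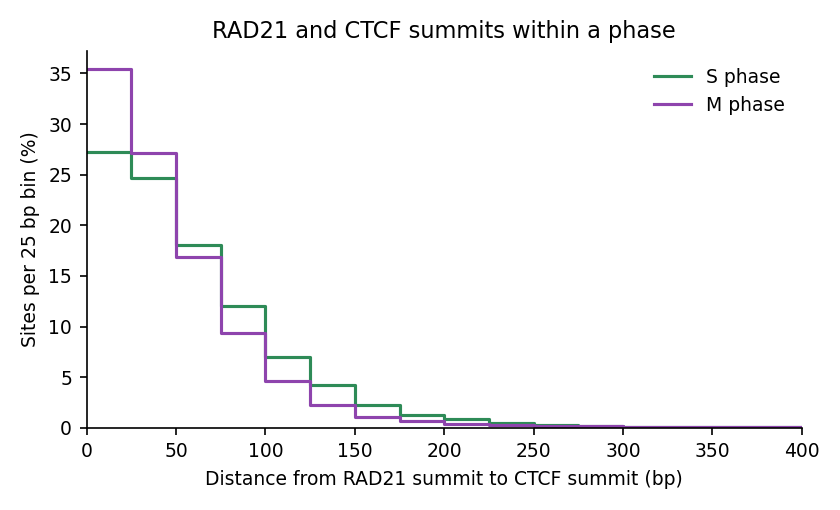
Distance from the RAD21 summit to the CTCF summit of the same phase (horizontal axis, bp, up to 400) as a share of sites per 25 bp bin (vertical axis, percent), for 19979 sites in S phase and 16223 in M phase. The M-phase curve is higher at short distances, with 63.4% of sites within 50 bp against 52.8% in S phase.

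The share of S-phase sites found in M phase varied little between autosomes. It ran from 67.0% on chromosome 22 to 72.6% on chromosome 8 over the 22 of them, and was 65.0% (60.7 to 69.1%) on X. The M-only share ran from 14.6% on chromosome 11 to 20.5% on chromosome 13, and on X it was 29.9% (25.8 to 34.2%; 143 of 479 peaks). The X share lay 12.2 points above that of the autosomes (8.20 to 16.4), but 4.14 points above (0.318 to 7.96) once weighted by score. Peaks on X were weak, with a median of 14 S-phase and 24 M-phase tags against 19 to 28 and 34 to 50 on the autosomes. The highest medians were on chromosomes 7, 12 and 15, with 25, 26 and 28 S-phase tags and 49, 49 and 50 M-phase tags. These chromosomes had 67.5, 67.7 and 67.7% of their S-phase peaks in M phase, near the low end of the autosomes. Their median S-phase scores, 140, 143 and 151, lay within the autosomal range of 130 to 153. Chromosome copy number was not measured here.

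**Figure D5:**
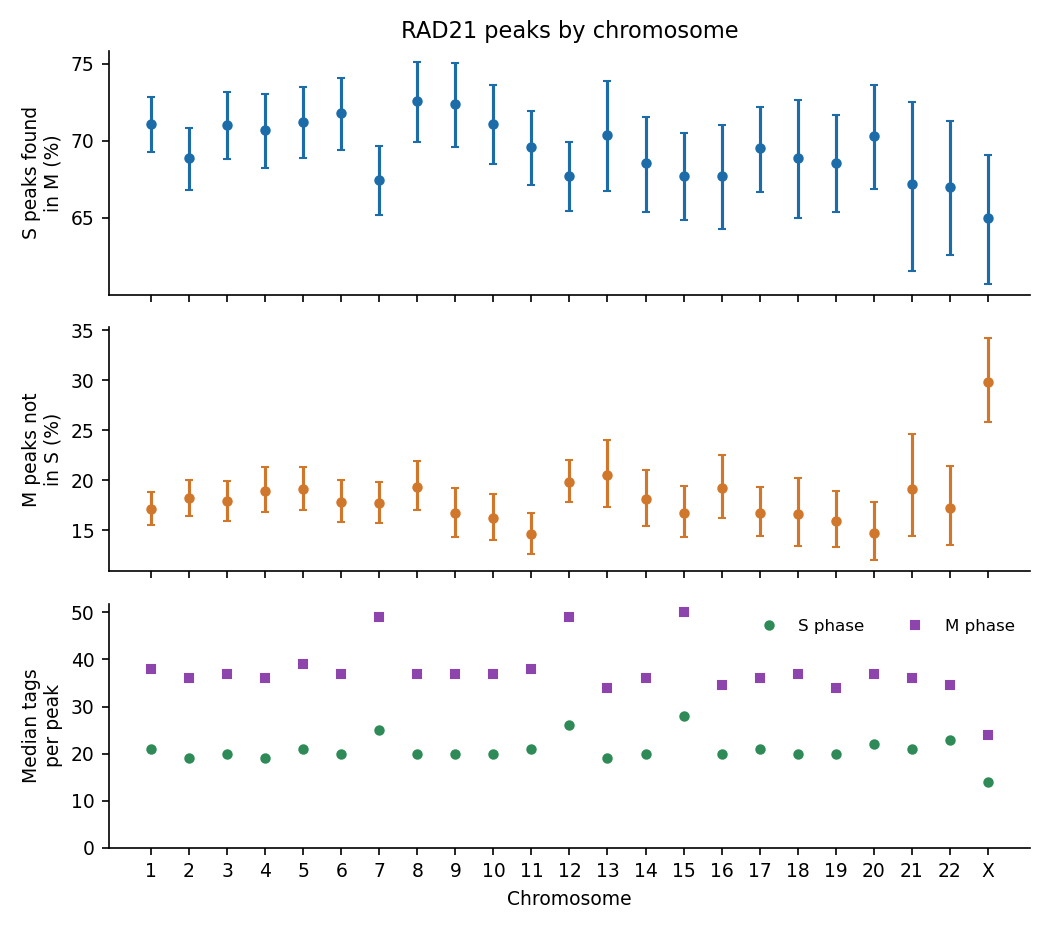
RAD21 peaks by chromosome (horizontal axis): the percentage of S-phase peaks found in M phase, the percentage of M-phase peaks absent from S phase, and the median tags per peak in each phase. Bars are Clopper-Pearson 95% intervals. The share of M-phase peaks absent from S phase is 29.9% on X and 14.6 to 20.5% on the autosomes, and median tags are highest on 7, 12 and 15 and lowest on X.

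The median M/S ratio of scaled tags differed between chromosomes, from 0.671 on 19 to 0.782 on 4 and 7. Chromosomes with a larger share of RAD21 peaks at CTCF had lower ratios, with a Spearman's rho of -0.805 over the 23 chromosomes, which share the same 2 libraries. For the share of sites found in M phase, rho with the CTCF share was 0.0919. Over single sites the median tag ratio was 0.741 with CTCF in both phases and 0.782 with CTCF in neither. On the other measures the order was reversed. Per kb of called width the ratios were 0.652 and 0.641, and by fold enrichment 1.09 and 1.03. These classes also differed in strength, with medians of 3.85 and 2.12 S-phase scaled tags, and the part of strength was not tested. The share found in M phase, by contrast, was higher at single sites with CTCF, as given above.

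Closely spaced and isolated cohesin sites were found again at similar rates. The median gap to the nearest RAD21 peak of the same list was 23974.5 bp for S phase and 29159 bp for M phase. S-phase peaks with another within 10000 bp were found in M phase in 70.4% of cases and the others in 69.5%, a difference of 0.893 points with an interval (-0.326 to 2.10) that includes 0. Peaks less than 1000 bp from the next were found in 66.8% of cases (64.2 to 69.4%), and 37.5% of these 1299 peaks held a factor in S phase, against 7.34% of the 3268 peaks with no neighbour within 100000 bp.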

How the data were processed

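RAD21 ChIP-seq peak lists of 1 S-phase and 1 M-phase library were compared, with the CTCF, HNF4A, KLF5, MYC and H3 lists as annotation. Reads were processed with CASAVA 1.4, BWA and MACS 1.4 against hg18, per the submitters' processing notes, and the file headers name MACS 1.4.0rc2, merged alignments, a p-value cutoff of 1e-05 and 1 tag kept per position. The deposited columns used were the tag count per peak, the score of -10 log10 p, the fold enrichment and the FDR in percent, all as the authors' peak caller gave them. The label of the M-phase list describes its 22966 peaks as under 5% FDR, but 14307 of them are. From these, overlaps, shares with Clopper-Pearson intervals, differences with Newcombe intervals, and ratios of tags per 1000000 filtered tags were computed with scipy 1.17.1, pandas 2.3.3 and numpy 2.4.6 under Python 3.11.15. Weighted differences were taken within 10 equal groups of score (or of S-phase tags). They were averaged with the size of the smaller class in each group as its weight. Procedures were checked on simulated lists. Members, classes and the rule for single sites (the 3 highest or lowest of each class by fold enrichment or ratio, off chromosome 8 and H3 peaks, of which examples are given) were chosen with earlier results of these data known. Genes near peaks, planned for an hg18 annotation, were not analysed here, and no sequence was read. No depth-matched comparison was made.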

Additional observations from a re-analysis of the deposited data

How the results depend on the processing

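Of 41 alternatives over 11 values, 11 stayed inside the interval of the reported value, 29 moved outside it and 1 reversed. The share of S-phase peaks found in M phase was 67.5% with an overlap of 50% of each peak, 58.8% with summits within 100 bp, 68.1% with scores of at least 100 in both lists, 50.5% with an FDR under 5% and 72.6% among the 10000 strongest. In the same order the share of M-phase peaks present in S phase was 79.7, 69.5, 85.3, 95.2 and 72.5%, and the M-only share with CTCF was 54.4, 65.1, 85.4, 76.1 and 96.1%. Limiting both lists turns shared peaks into M-only ones when their S-phase peak is left out. With the S-phase list whole, in alternatives added after seeing the data, the M-only share with CTCF was 76.5% at a score of 100 and 85.4% among the 10000 strongest. The difference with minus without CTCF, 48.1 points in the report, was 42.5 points at a score of 100 and 36.9 among the strongest. The FDR limit removed M-phase peaks and no S-phase peaks. The tag ratio was 0.770 under the FDR limit, 0.720 among the strongest, 0.538 with total tags and 0.650 per kb, and by fold enrichment it reversed to 1.07. With a score of at least 100 the S-to-M summit distance was 37 bp (38 bp under the FDR limit) and that to CTCF 44 bp in S phase and 34 bp in M phase. On chromosome X, in an alternative chosen after seeing the data, 45.8% of S-phase peaks were found and 25.1% of M-phase peaks were M-only at that score. The cause of these shifts was not tested. No paired analysis was possible because each group has 1 library. The effect of depth was not tested, and the deeper M-phase library has the shorter list.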
